A study of Mus musculus with 14 samples.

Results

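A set of 8 genes of the vessel lining was followed across mouse fetal liver, bone marrow and spleen, and between C1qa genotypes. The genes are Stab2, Lyve1, Clec4g and Oit3, which are used as markers of the sinusoidal endothelium of liver and other blood-forming organs, and Pecam1, Cdh5, Kdr and Emcn, which are used as markers of blood vessel endothelium in general. They were taken by symbol, and all 8 were found among the 32589 features of the purchased sections and the 19465 features of the C1qa cross.

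Endothelial cells line every blood vessel. In liver, spleen and bone marrow much of this lining is sinusoidal, with wide, leaky channels whose cells take up waste molecules from blood through scavenger receptors. These same channels surround the sites where red blood cells form and are cleared, so that endothelial RNA in a spot is mixed with RNA of the blood cells beside it.

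Each value came from a Visium section, in which probes bound to RNA of formalin-fixed tissue are counted in barcoded spots that can each hold several cells. From wild-type C57BL/6 mice bought from the Jackson Laboratory there was 1 section each of E13.5 fetal liver, E14.5 fetal liver, bone marrow at P8 (postnatal day 8), bone marrow at 89 weeks, bone marrow at 6 months decalcified in 0.5 M EDTA for 5 days, and adult spleen. From a cross of C1qa heterozygotes there were 2 wild-type and 2 knockout fetal livers at E14.5, each pair numbered 2 and 4 after the litter, and 4 spleens taken at 3 months, 2 of each genotype, numbered 1 and 2 within it. The knockout was of the whole animal and not of endothelium. Each purchased group is a single section, so its spread is unknown.

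Levels are given in CPM, the UMI counts of a gene scaled to a total of 1000000 UMIs over the spots on tissue that showed 1000 or more genes. C1qa held 1023 to 4343 counts in the 4 wild-type sections of the cross and 1 or 2 counts in each of the 4 knockout sections, as the genotype labels require. Passing spots carried from 37167 UMIs in the EDTA bone marrow, where 15 of 814 spots passed, up to 56182915 in the E14.5 fetal liver that was purchased. The summed level of 10 hepatocyte genes ran from 6686 to 99884 CPM in the 6 fetal livers and from 7.32 to 71.2 CPM in the 5 spleens, and 10 B cell genes reached 5490 to 7832 CPM in the spleens. Spots with at least 0.5% hepatocyte UMIs, called liver spots here, numbered 2190 of 2320 in wild-type fetal liver 2 and 2073 of 2147 in knockout fetal liver 2, but 240 of 806 in wild-type fetal liver 4 and 366 of 589 in knockout fetal liver 4. Many spots of the litter 4 sections thus fell under the liver threshold. A lower level of a gene can reflect fewer endothelial cells in the spots or less RNA in each, and these cannot be told apart.

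The genes lie apart in the genome (RefSeq, GRCm38.p6). Stab2 (ENSMUSG00000035459) spans chr10:86841194-87008038, Oit3 chr10:59422960-59441779, Lyve1 chr7:110850607-110862953, Clec4g chr8:3707066-3720695, Cdh5 chr8:104101613-104144504, Pecam1 chr11:106654213-106715281, Kdr chr5:75932827-75979072 and Emcn chr3:137341062-137431069. Sequence just upstream of the annotated gene start is shown for 3 members, Stab2 and Clec4g, which were higher in liver spots of the fetal sections, and Emcn, which was lower there. Capitals mark GGAA or its reverse complement TTCC, the core letters bound by ETS factors, a family active in endothelium.
Stab2, chr10:87008039-87008192, minus strand: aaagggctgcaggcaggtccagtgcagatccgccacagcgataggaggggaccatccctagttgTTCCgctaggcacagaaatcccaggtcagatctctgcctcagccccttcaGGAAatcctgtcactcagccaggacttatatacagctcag
Clec4g, chr8:3720696-3720901, minus strand: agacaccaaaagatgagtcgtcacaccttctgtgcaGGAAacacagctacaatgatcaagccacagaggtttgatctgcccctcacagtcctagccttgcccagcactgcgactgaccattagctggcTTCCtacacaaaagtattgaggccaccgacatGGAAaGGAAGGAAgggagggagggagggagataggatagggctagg
Emcn, chr3:137340828-137341061, plus strand: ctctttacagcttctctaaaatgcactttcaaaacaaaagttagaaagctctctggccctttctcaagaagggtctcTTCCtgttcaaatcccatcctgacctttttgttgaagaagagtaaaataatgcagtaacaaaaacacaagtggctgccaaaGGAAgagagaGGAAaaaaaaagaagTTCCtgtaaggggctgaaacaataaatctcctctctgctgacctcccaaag
The core was matched on both strands 2 times in 154 bases of Stab2, 5 times in 206 bases of Clec4g and 4 times in 234 bases of Emcn. Such matches are common, since 82.5%, 89.7% and 92.1% of 27025 RefSeq promoter windows of the same 3 lengths held at least 1. At least as many as in Clec4g were held by 9.88% of windows, against 52.1% for Stab2 and 28.7% for Emcn. GATAA or TTATC, the core letters of GATA factors, matched in none of the 3 sequences. A match is a run of letters and not evidence of binding.

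The sinusoidal genes did not share 1 profile over the tissues. Stab2, a scavenger receptor for hyaluronan and other ligands, stood at 48.9 CPM in the purchased E13.5 and 42.6 CPM in the purchased E14.5 fetal liver. In the cross, fetal livers of litters 2 and 4 held 55.4 and 23.7 CPM when wild type and 42.3 and 39.2 CPM when knockout. P8 bone marrow held 18.4 CPM, the 89-week section 65.9 CPM and the purchased spleen 126 CPM. In the cross, spleens 1 and 2 held 192 and 140.1 CPM when wild type and 116 and 97.2 CPM when knockout. Every spleen exceeded every fetal liver and both larger bone marrow sections. Clec4g, a C-type lectin of liver and lymph node sinusoids, stood at 5.09 and 5.66 CPM in the purchased fetal livers and at 14.6, 3.18, 9.78 and 6.07 CPM in the fetal livers of the cross in the same order. P8 bone marrow held 0.865 CPM, the 89-week section 3.44 CPM and the purchased spleen 44.4 CPM, while spleens of the cross held 24.4, 28.9, 43.2 and 35.6 CPM in that order. As for Stab2, all 5 spleens lay above all other sections with usable depth.

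Lyve1 and Oit3 ran the other way. Lyve1, a hyaluronan receptor of lymphatic and liver sinusoidal endothelium, was highest in the purchased E13.5 fetal liver at 12.3 CPM, followed by 6.64 CPM at E14.5, and it stood at 6.09, 3.43, 4.68 and 5.05 CPM in the fetal livers of the cross. P8 bone marrow held 1.77 CPM, the 89-week section 0.593 CPM and the purchased spleen 0.785 CPM, against 2.81, 4.50, 1.13 and 1.31 CPM in the spleens of the cross, where 12 to 56 counts lay behind each value. Oit3, a secreted zona pellucida domain protein of liver, stood at 52.5 and 38.6 CPM in the purchased fetal livers and at 33.2, 33.5, 37.5 and 48.3 CPM in those of the cross. P8 bone marrow held 4.46 CPM, the 89-week section 0.830 CPM (7 counts) and the purchased spleen 4.38 CPM, against 14.2, 8.28, 10.0 and 6.68 CPM in the spleens of the cross. All 6 fetal livers lay above all spleens and bone marrow sections for Oit3, whereas for Lyve1 wild-type spleen 2 lay above wild-type fetal liver 4.

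**Figure D1:**
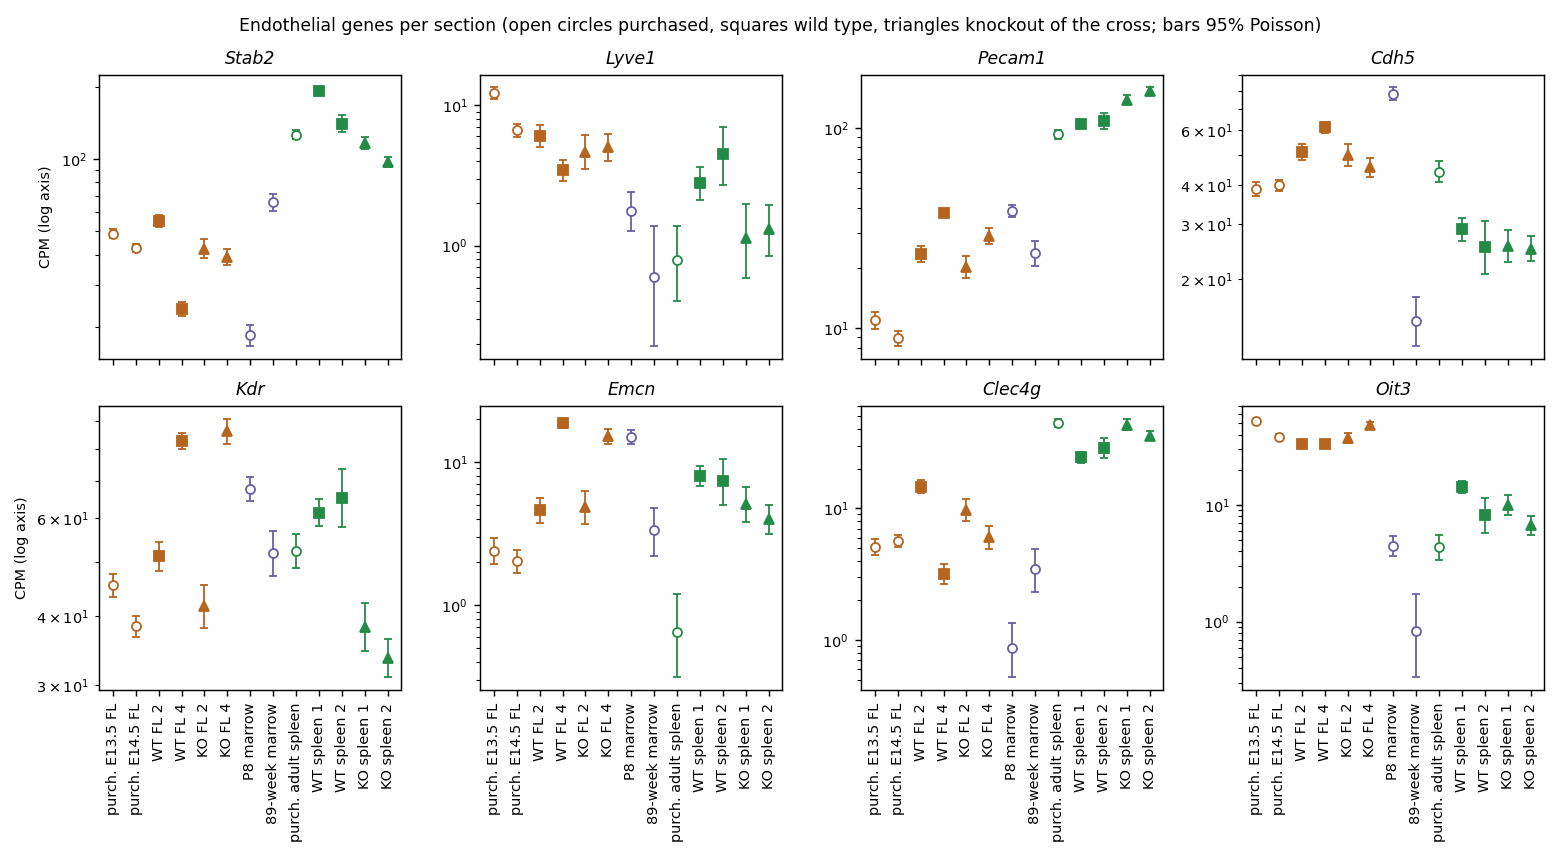
Level of each of the 8 genes in CPM (log axis, a separate scale in each panel) in the 13 sections other than the EDTA bone marrow. Open circles are purchased sections, squares wild-type and triangles knockout sections of the cross, brown is fetal liver, violet bone marrow and green spleen, and bars are 95% exact Poisson intervals. Stab2, Clec4g and Pecam1 were highest in spleen, and Oit3 was highest in fetal liver.

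Among the general endothelial genes, Pecam1, an adhesion molecule of endothelium that platelets and leukocytes also carry, was lowest in the purchased fetal livers (10.9 and 8.92 CPM). It stood at 23.5, 37.6, 20.3 and 28.9 CPM in the fetal livers of the cross, at 38.6 and 23.7 CPM in P8 and 89-week bone marrow, at 93.2 CPM in the purchased spleen, and at 104, 108, 138 and 154 CPM in the spleens of the cross. All 5 spleens exceeded every other section. Cdh5, the cadherin of endothelial junctions, was at 39.0 and 40.0 CPM in the purchased fetal livers, at 51.0, 61.2, 50.0 and 45.7 CPM in those of the cross, at 78.4 CPM in P8 and 14.7 CPM in 89-week bone marrow, at 44.1 CPM in the purchased spleen and at 28.9, 25.3, 25.6 and 25.0 CPM in the spleens of the cross. Within the cross, spleens lay below fetal livers for Cdh5 without overlap. For this and the other separations of tissues above, the share of all genes that separated in the same way was not counted.

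Kdr, the main VEGF receptor of endothelium, varied least. The purchased fetal livers held 45.5 and 38.3 CPM and those of the cross 51.2, 82.7, 41.6 and 86.1 CPM. P8 bone marrow held 67.8 CPM and the 89-week section 51.9 CPM, and Kdr stood at 52.4 CPM in the purchased spleen and at 61.5, 65.3, 38.2 and 33.6 CPM in the spleens of the cross. Emcn, a sialomucin of capillary and venous endothelium, was at 2.40 and 2.03 CPM in the purchased fetal livers and at 4.60, 18.6, 4.85 and 15.0 CPM in those of the cross. It was at 15.0 CPM in P8 and 3.32 CPM in 89-week bone marrow, at 0.654 CPM in the purchased spleen (10 counts) and at 7.98, 7.34, 5.10 and 4.00 CPM in the spleens of the cross. For both Kdr and Emcn the 2 fetal livers of litter 4 lay above the 2 of litter 2, whatever the genotype. The EDTA bone marrow held 3 counts of Stab2, 3 of Kdr and 2 of Emcn and none of the other 5 genes. At its depth 3 counts equal 80.7 CPM, and the upper 95% limit for a gene without counts was 99.3 CPM.

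Group means were ordered for each gene over 9 groups without the EDTA section, and neighbours in the order were read against the largest fold between 2 sections of 1 cross group. That fold was 2.33 for Stab2, 2.07 for Kdr, 4.04 for Emcn and 4.59 for Clec4g, each set by a fetal liver pair, and no neighbours in the order differed by more than it. Each such pair joins the 2 litters, whose shares of liver spots differed as given above. The part of that difference in the fold was not tested, and a step within the fold is not evidence of equal levels. For Stab2 the order ran from wild-type spleens of the cross through the purchased spleen, knockout spleens, 89-week bone marrow and the fetal livers to P8 bone marrow. For Clec4g it ran from the purchased spleen through knockout and wild-type spleens and the fetal livers to 89-week and P8 bone marrow. For Kdr and Emcn it began with P8 bone marrow and the wild-type fetal livers of the cross and ended with knockout spleens and the purchased spleen, respectively.

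The other 4 genes had steps past that fold. For Pecam1 (largest fold 1.60) the order was knockout, wild-type and purchased spleens, then a 2.41-fold step to P8 bone marrow, fetal livers of the cross and 89-week bone marrow, and a 2.17-fold step to the purchased fetal livers. For Cdh5 (1.20) it was P8 bone marrow, 1.40-fold above the fetal livers of the cross, then the purchased spleen and fetal livers, 1.44-fold above the spleens of the cross, and 89-week bone marrow last after a 1.72-fold step. For Oit3 (1.71) the purchased E13.5, knockout, purchased E14.5 and wild-type fetal livers came first, 2.97-fold above wild-type and then knockout spleens of the cross. A 1.87-fold step led from there to P8 bone marrow and the purchased spleen, and 89-week bone marrow lay a further 5.28-fold below. For Lyve1 (1.77) the E13.5 section was 1.85-fold above the E14.5 section, the other fetal livers and the wild-type spleens followed, and a 2.06-fold step led to P8 bone marrow, knockout spleens, the purchased spleen and 89-week bone marrow. The purchased and cross sections differed in mice, feature table and software, and these differences cannot be told apart from tissue or age where an order crosses the 2 sources.

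Stab2 was higher and Lyve1, Pecam1, Cdh5, Emcn and Oit3 were lower in the 89-week than in the P8 section of bone marrow. Each fold was past the largest fold between sections of 1 cross group, which comes from fetal livers and spleens alone. The counting intervals of Lyve1, Pecam1 and Emcn reached below that largest fold. Against P8, 89-week bone marrow was 3.58-fold higher in Stab2 (95% interval of counting error 3.14 to 4.08), whereas it was 5.33-fold lower in Cdh5 (4.44 to 6.45), 4.51-fold lower in Emcn (3.06 to 6.89), 5.37-fold lower in Oit3 (2.51 to 13.7), 2.99-fold lower in Lyve1 (1.18 to 9.73, on 5 and 39 counts) and 1.63-fold lower in Pecam1 (1.39 to 1.91). Kdr was 1.31-fold lower (1.17 to 1.46), within the fold seen between sections of 1 group, and so was the 3.98-fold higher Clec4g (2.16 to 7.51) on its 29 and 19 counts. Among 11808 genes with at least 5 CPM in either section, 14.3% were at least 2-fold higher and 28.8% at least 2-fold lower at 89 weeks, so that shifts of this size were common, and with 1 section per age no test was possible. Of the 5 members with that level, Stab2 was 2-fold higher and Cdh5 and Emcn were 2-fold lower. By the paper, marrow of older mice was cut frozen without decalcification and freed of bone before it was embedded in paraffin. It describes no such step for the P8 femurs, so that age and preparation cannot be told apart here.

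Few spots of the P8 section were rich in marrow cells, with 307 of 1085 spots at or above 0.5% of UMIs from 10 neutrophil genes, against 931 of 932 spots at 89 weeks. Within the P8 section these spots held Stab2 at 31.4 CPM against 8.90 CPM in the other spots, the member with the largest contrast among those over 20 counts in both. Cdh5 stood at 62.2 against 90.1 CPM, Emcn at 11.2 against 17.7 CPM, Pecam1 at 32.8 against 42.9 CPM and Kdr at 61.5 against 72.4 CPM. Stab2 in these P8 spots was thus closer to the 65.9 CPM of the aged section, while Cdh5 and Emcn remained above its 14.7 and 3.32 CPM.

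Between E13.5 and E14.5 in the purchased fetal livers, Lyve1 was 1.85-fold lower at the later stage (95% interval of counting error 1.61 to 2.12). This was past the largest fold between sections of 1 cross group (1.77), but the interval reached below that fold. Oit3 was 1.36-fold lower (1.28 to 1.45), Kdr 1.19-fold lower and Stab2 1.15-fold lower, all within that fold, and Cdh5 was 1.03-fold higher (0.961 to 1.10). Among 9995 genes, 0.730% were at least 2-fold higher and 1.06% at least 2-fold lower at E14.5, and no member reached 2-fold.

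The purchased spleen can be set beside the other purchased sections without a test, though the adult spleen and the fetal livers differ in age as well as tissue. Against the E14.5 fetal liver it was 10.5-fold higher in Pecam1 (95% interval of counting error 9.43 to 11.6), 7.84-fold higher in Clec4g (6.86 to 8.99) and 2.96-fold higher in Stab2 (2.79 to 3.15), and 8.81-fold lower in Oit3 (6.91 to 11.4) and 8.46-fold lower in Lyve1 (4.79 to 16.5). Cdh5 (1.10-fold higher) and Kdr (1.37-fold higher) lay within the fold between sections of 1 group. Of 11879 genes, 43.8% were at least 2-fold higher and 12.1% at least 2-fold lower in spleen, so that the 2 lower members were the less usual.

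Against 89-week bone marrow, of 5 members with 5 CPM in either section, Clec4g was 12.9-fold (8.91 to 19.4), Pecam1 3.93-fold (3.39 to 4.58) and Cdh5 3.00-fold (2.48 to 3.67) higher in the purchased spleen, where 44.9% of 11604 genes were at least 2-fold higher and 9.32% at least 2-fold lower. Kdr was level at 1.01-fold (0.897 to 1.14). Against the E14.5 fetal liver, the aged marrow was 46.5-fold lower in Oit3 (22.5 to 116), 11.2-fold lower in Lyve1 (4.76 to 34.7) and 2.72-fold lower in Cdh5 (2.27 to 3.29), and 2.66-fold higher in Pecam1 (2.25 to 3.14). Of 10916 genes, 23.0% were at least 2-fold higher and 20.6% at least 2-fold lower there.

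Within the cross, spleen and fetal liver could be tested over 4 sections of each tissue, with genotype as a covariate. The fetal livers were taken at E14.5 and the spleens at 3 months. Tissue therefore cannot be told apart from age in any comparison of the 2. Of the members, Oit3, Lyve1, Cdh5, Emcn and Kdr, were lower in spleen, and Pecam1 was higher, by the quasi-likelihood test of edgeR over 19087 genes at an adjusted p under 0.05. That rule called 46.8% of all genes, 21.2% higher and 25.6% lower in spleen, so that a call was not unusual. Oit3 changed most, by -2.72 on the log2 scale (SE 0.31, adjusted p = 0.000130), and its means were 38.1 ± 7.06 CPM in fetal liver and 9.79 ± 3.24 CPM in spleen (SD, n = 4 each). Lyve1 followed at -2.00 (SE 0.48, adjusted p = 0.00774), Cdh5 at -1.76 (SE 0.29, adjusted p = 0.00113), Emcn at -1.39 (SE 0.33, adjusted p = 0.00750) and Kdr at -1.11 (SE 0.19, adjusted p = 0.00119).

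Pecam1 was higher by 1.49 (SE 0.29, adjusted p = 0.00274), with 27.6 ± 7.60 CPM in fetal liver and 126 ± 23.8 CPM in spleen. Stab2 (0.86, SE 0.41, adjusted p = 0.105) and Clec4g (1.00, SE 0.61, adjusted p = 0.191) missed the threshold although all 4 spleens lay above all 4 fetal livers in CPM. How many of all genes separated in this way was not counted. The fitted changes were 0.58 to 1.01 lower on the log2 scale than the ratio of mean CPM. The fit includes TMM factors and does not weight sections equally, whereas the ratio of mean CPM does. In CPM, Kdr, Emcn and Lyve1 overlapped between the tissues. With upper-quartile factors the median over all genes went from 0.10 to 0.51, and 58.6% in place of 45.3% of calls were higher in spleen. With them Stab2 passed (1.33, adjusted p = 0.0221), or 0.82 above that median, and Emcn did not (-1.01, adjusted p = 0.0736). Without wild-type fetal liver 2, Stab2 (1.35, adjusted p = 0.0167) and Clec4g (1.99, adjusted p = 0.00280) passed. With liver spots alone in the fetal livers Emcn fell short (-0.56, adjusted p = 0.0869), as did Emcn (-1.36, adjusted p = 0.0850) and Lyve1 (-1.53, adjusted p = 0.118) in wild-type sections alone.

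The other vascular genes were called in both directions, about as often as genes at large. Of 73 tested genes in the lists of general endothelial, sinusoidal, arterial, venous, lymphatic, vascular ligand and mural genes, 10 were higher and 24 lower in spleen, with a median log2 fold change of -0.38 against 0.10 for all genes. Over all genes, 46.8% were called, 21.2% higher and 25.6% lower. Highest in spleen were Dnase1l3 (4.59), a secreted DNase, Fcgr2b (3.36), an inhibitory Fc receptor, Fcna (2.40), a ficolin that macrophages also make, and Madcam1 (2.19), an adhesion molecule of marginal sinus and mucosal vessels, with adjusted p of 0.0191 or less. Lowest were Rspo3 (-5.20), a Wnt signal enhancer, Reln (-5.18), a matrix protein, Apln (-4.38), a ligand of the apelin receptor, and Gdf2 (-3.04), the ligand BMP9, with adjusted p of 0.000327 or less. All 4 tested genes of the lymphatic list were lower. Their cell source was not tested, and Reln was higher in liver spots than in other spots of the fetal sections (log2 fold change 3.44).

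The maps separated the members most plainly within the fetal liver sections. In the 4 sections of the cross, liver spots were compared with the other spots of the same section. Stab2, Oit3 and Clec4g were higher in liver spots, and Pecam1, Cdh5 and Emcn were lower, with the section as a block in edgeR over 17875 genes, of which 32.6% were called, 17.8% higher and 14.9% lower. Stab2 stood at 57.3, 48.6, 43.5 and 50.4 CPM in liver spots of wild-type fetal livers 2 and 4 and knockout fetal livers 2 and 4, against 4.17, 5.94, 3.01 and 12.2 CPM in their other spots. The 2 sets of spots did not overlap, and the fitted log2 change was 3.42 (SE 0.35, adjusted p = 0.000549). For this and the other members, the share of all genes without overlap between liver and other spots was not counted. Oit3 stood at 34.3, 71.5, 38.3 and 64.3 CPM in liver spots against 1.39, 6.37, 9.04 and 9.39 CPM, a fitted log2 change of 3.72 (SE 0.30, adjusted p = 0.000333), again without overlap. Clec4g stood at 15.1, 4.72, 10.1 and 6.46 CPM against 1.39, 2.08, 0 and 5.10 CPM (1.96, SE 0.57, adjusted p = 0.0332), with overlap between sections. The other spots held few counts in litter 2, at most 3 for each of these 3 genes.

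**Figure D2:**
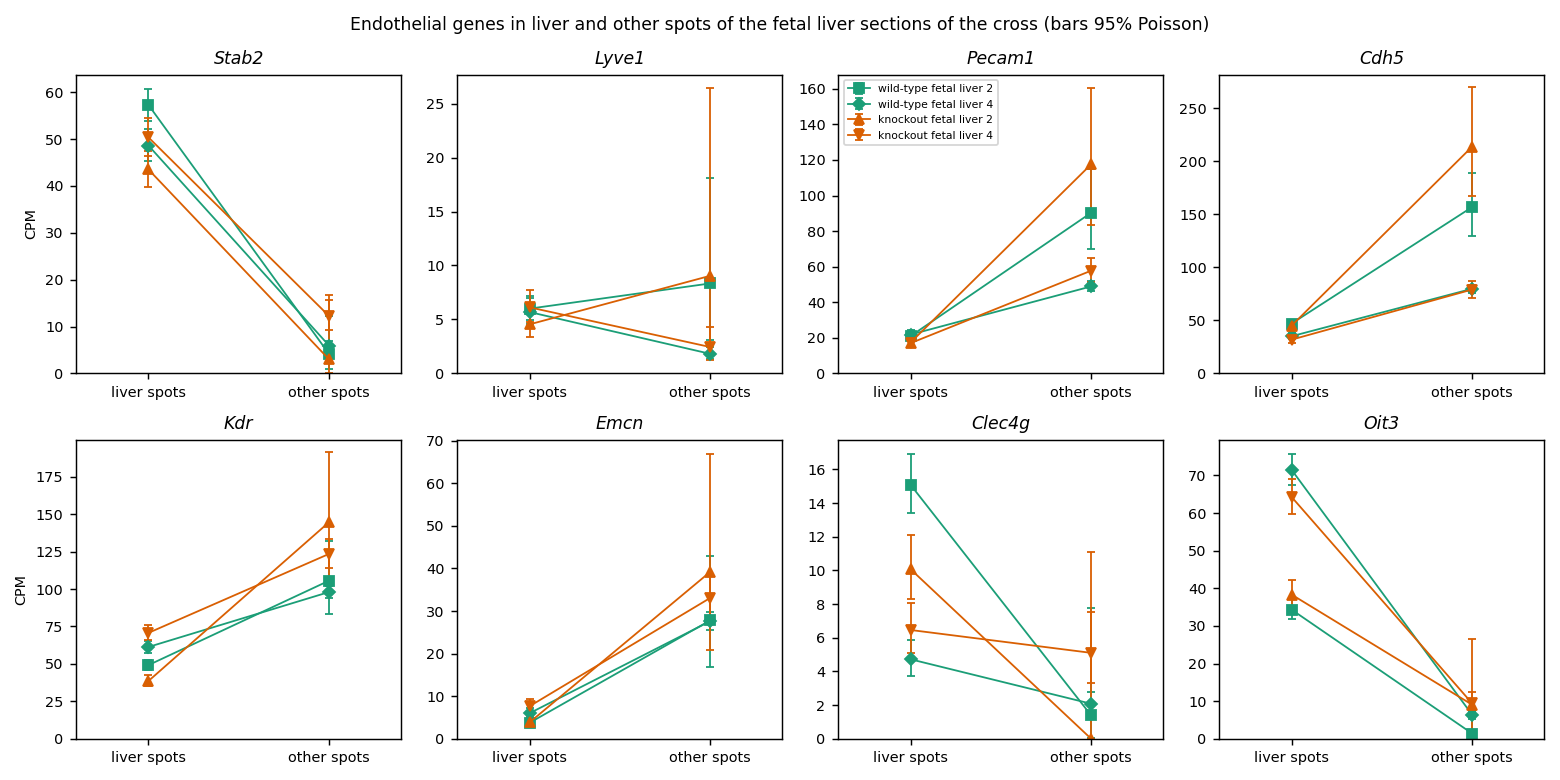
Level of each gene in CPM in liver spots (at least 0.5% hepatocyte UMIs) and other spots of the 4 fetal liver sections of the cross. Green lines are wild type, orange lines knockout, and bars are 95% exact Poisson intervals. Stab2 and Oit3 were higher on the left in every section, and Pecam1, Cdh5, Kdr and Emcn were higher on the right in every section.

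Emcn had the opposite pattern. It stood at 3.75, 5.99, 3.83 and 7.64 CPM in liver spots and at 27.8, 27.6, 39.2 and 33.1 CPM in other spots of the same 4 sections, a fitted log2 change of -1.91 (SE 0.26, adjusted p = 0.00139). Pecam1 stood at 21.0, 21.9, 17.4 and 17.0 CPM against 90.3, 48.9, 118 and 57.8 CPM (-1.24, SE 0.22, adjusted p = 0.00414), and Cdh5 at 47.1, 35.1, 45.1 and 31.9 CPM against 157, 79.9, 214 and 79.2 CPM (-0.92, SE 0.16, adjusted p = 0.00423). None of these 3 overlapped between liver and other spots, but the share of all genes without overlap was not counted. Kdr was lower in liver spots in all 4 sections, at 49.2, 61.3, 38.6 and 70.7 CPM against 98.0 CPM or more, but its fitted change of -0.42 (SE 0.17, adjusted p = 0.103) missed the threshold. Lyve1 stood at 6.00, 5.69, 4.55 and 6.13 CPM against 8.34, 1.82, 9.04 and 2.45 CPM, and the fitted change was 1.29 (SE 0.48, adjusted p = 0.0781). Its other-spot values in litter 2 rest on 6 and 3 counts. The fitted changes between liver and other spots differed by -0.12 to 1.25 from the log2 ratio of mean CPM, with a median of 0.71. The fit includes TMM factors and the section block and does not weight sections equally, whereas the ratio of mean CPM does. That ratio was 0.05 for Lyve1, -1.10 for Kdr and -1.74 for Cdh5.

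Some of these calls moved with the sections or the method. Cdh5 did not pass without the section block (-0.95, adjusted p = 0.131). Clec4g did not pass without wild-type fetal liver 4 (adjusted p = 0.0924) or knockout fetal liver 2 (0.0891), Kdr and Lyve1 passed without wild-type fetal liver 2 (adjusted p = 0.0370 and 0.00596), and Lyve1 passed in DESeq2 (adjusted p = 0.0149). The other spots also held markers of other tissues. All 8 mural genes were lower in liver spots, as were 5 of 8 neural and epithelial genes and 3 of 8 bone and cartilage genes. All 10 erythroid genes were higher, as were all 10 hepatocyte genes, the latter by design since they set the split. The part of those other tissues in the members' values was not tested. Of 72 other vascular genes, 13 were higher and 22 lower in liver spots, with a median log2 fold change of -0.38 against 0.18 for all genes. Over all genes, 17.8% were called higher and 14.9% lower. The sinusoidal list had 7 higher and 1 lower of 16, and the arterial list 0 higher and 5 lower of 8. Fcna (4.06), Gdf2 (3.60), Reln (3.44) and Ackr1 (3.00), the atypical chemokine receptor of venules and erythroid cells, were highest in liver spots. Acta2 (-3.96), Des (-3.61) and Myh11 (-3.27), contractile and filament proteins of muscle and mural cells, and Apln (-3.35) were lowest, with adjusted p of 0.0253 or less for these 8 genes.

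In spleen, spots of each section were ranked by the log2 ratio of 12 white pulp genes of B and T cells to 10 red pulp genes of macrophages and erythroid cells, and cut into 3 sets of equal size, of which the highest (white-pulp-rich) and the lowest (red-pulp-rich) were compared in the 4 spleens of the cross. Each set held 430 to 548 spots, and 28.4% to 33.6% of spots lay within 0.5 of a cut on the log2 scale. In wild-type spleen 2, with a median of 2294 UMIs per spot, the white-pulp-rich spots had a median log2 ratio of 12.2. The other spleens of the cross had 3.17, 5.47 and 5.10. Such a ratio arises where a spot holds no red pulp counts, so that the 1 CPM added to each sum and the depth weigh on the rank there. Of the members, Stab2, Clec4g, Kdr, Oit3 and Cdh5 were lower in white-pulp-rich spots and none was higher, where edgeR with the section as a block called 22.4% of 18210 genes, 11.4% higher and 11.0% lower. Stab2 stood at 275, 242, 236 and 180.0 CPM in red-pulp-rich spots of wild-type spleens 1 and 2 and knockout spleens 1 and 2, and at 85.1, 40.9, 32.0 and 30.6 CPM in their white-pulp-rich spots. The sets did not overlap, the contrast within a section was 3.23-fold to 7.38-fold, and the fitted log2 change was -2.55 (SE 0.14, adjusted p = 1.91e-06). How many of all genes separated the sets was not counted. The purchased spleen, not in the test, held 216 and 62.1 CPM.

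Clec4g stood at 24.9, 36.7, 72.6 and 60.7 CPM in red-pulp-rich spots and at 18.1, 17.6, 14.9 and 11.1 CPM in white-pulp-rich spots (-1.78, SE 0.27, adjusted p = 0.000933). Its contrast was 1.38-fold and 2.08-fold in the wild-type spleens, 4.87-fold and 5.48-fold in the knockouts and 3.27-fold in the purchased spleen, and in wild-type spleen 1 the middle set was highest at 31.1 CPM. Whether the contrast of Clec4g differed between genotypes was not tested. Kdr stood at 80.4, 104, 53.3 and 45.1 CPM against 40.5, 39.5, 26.6 and 23.0 CPM (-1.24, SE 0.10, adjusted p = 1.51e-05). Oit3 (-1.14, SE 0.17, adjusted p = 0.000958) ranged from 8.27 to 20.4 CPM against 4.63 to 9.11 CPM, and Cdh5 (-0.96, SE 0.13, adjusted p = 0.000474) from 30.3 to 36.0 CPM against 16.4 to 23.0 CPM. All 3 were lower in the white-pulp-rich spots of each section.

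**Figure D3:**
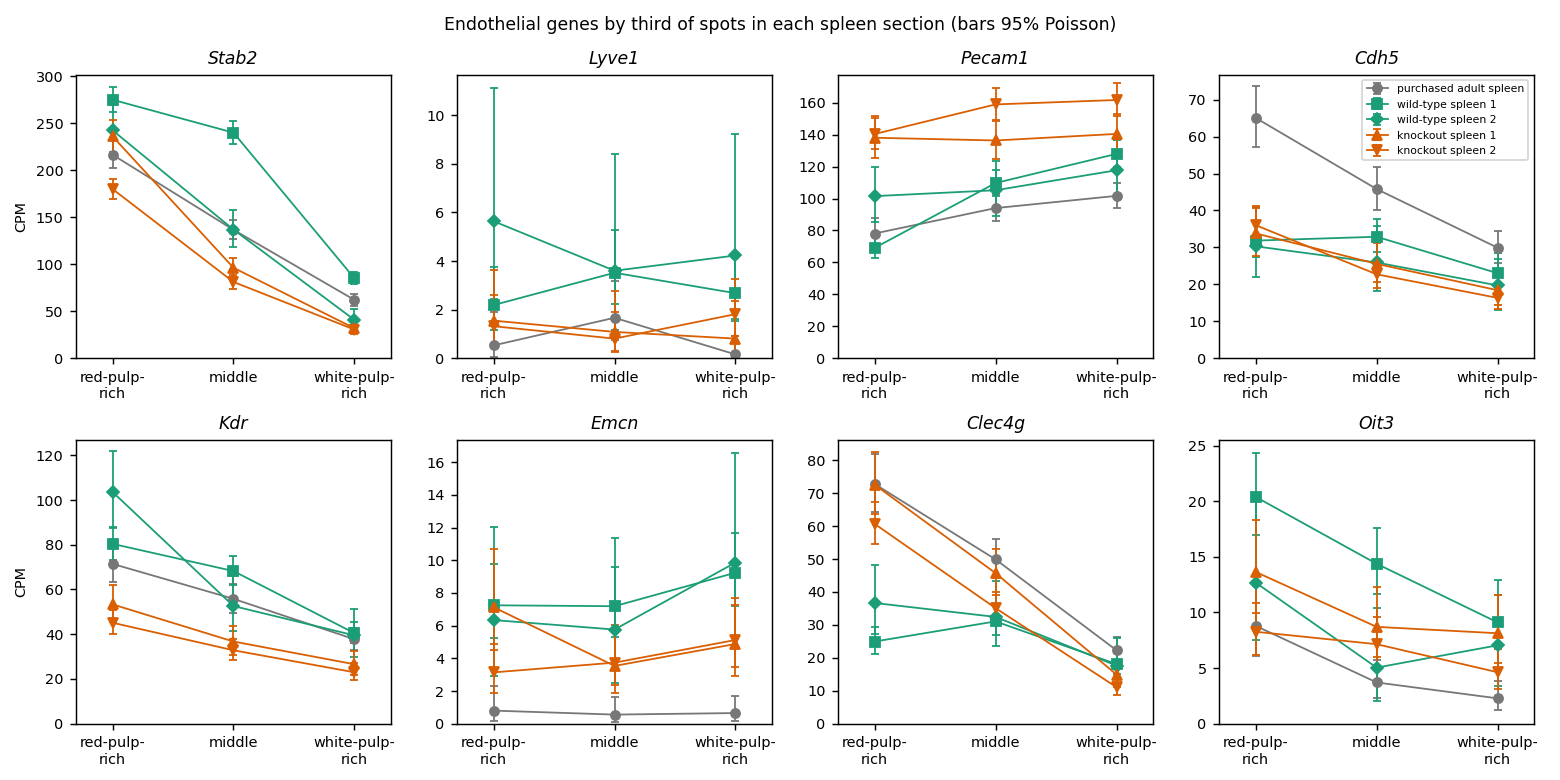
Level of each gene in CPM in the red-pulp-rich, middle and white-pulp-rich sets of spots of 5 spleens. Green lines are wild-type, orange lines knockout and the grey line the purchased spleen, and bars are 95% exact Poisson intervals. Stab2 and Kdr were highest in red-pulp-rich spots of every section, while Pecam1 was as high or higher in white-pulp-rich spots.

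Pecam1, Emcn and Lyve1 did not follow the red pulp. Pecam1 stood at 69.1, 101, 138 and 140.3 CPM in red-pulp-rich spots and at 128, 118, 140.4 and 162 CPM in white-pulp-rich spots, a fitted log2 change of 0.18 (SE 0.11, adjusted p = 0.285). Emcn ranged from 3.14 to 7.25 CPM against 4.88 to 9.87 CPM (0.08, SE 0.21, adjusted p = 0.841), and Lyve1 from 1.32 to 5.64 CPM against 0.813 to 4.23 CPM (-0.15, SE 0.31, adjusted p = 0.819) on at most 20 counts per set. All 5 calls held without any 1 section and with spots cut into 2 sets in place of 3, upper-quartile factors, DESeq2, no section block and with the purchased spleen added. Markers of other cells changed with the same ranking, by design for the genes that define it. All 10 erythroid and all 10 megakaryocyte and platelet genes were lower in white-pulp-rich spots and all 10 B cell and all 10 T cell genes were higher.

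The map of wild-type spleen 1 shows the white pulp as patches in a connected red pulp. Stab2 counts were spread through the red pulp and thin within the patches, and Pecam1 counts were found in both.

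**Figure D4:**
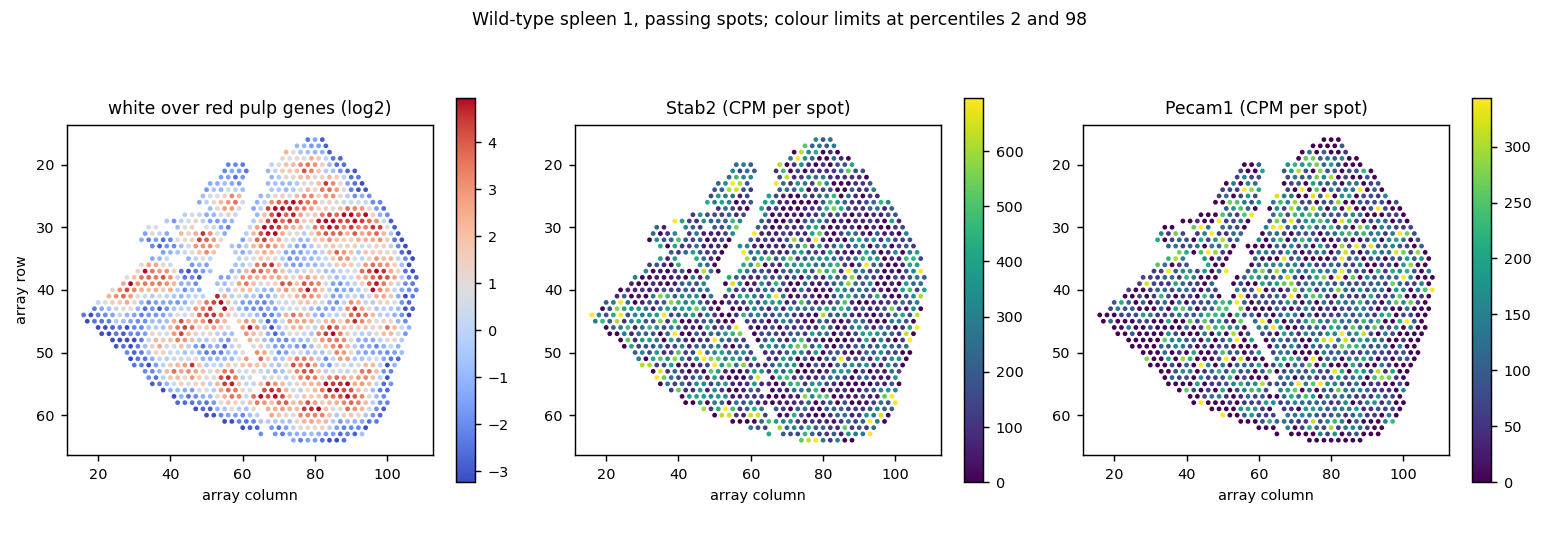
Passing spots of wild-type spleen 1 by array column and row, coloured by the log2 ratio of white to red pulp genes (left), Stab2 in CPM per spot (middle) and Pecam1 in CPM per spot (right), with colours limited at percentiles 2 and 98. Across the section, Stab2 was 275 CPM in the red-pulp-rich and 85.1 CPM in the white-pulp-rich spots, and Pecam1 was 69.1 and 128 CPM.

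The other vascular genes leaned to the red pulp as well. Of 70 tested, 41 were lower and 2 higher in white-pulp-rich spots, with a median log2 fold change of -0.66 against -0.01 for all genes. Over all genes, 11.0% were called lower and 11.4% higher. The 2 higher genes were Madcam1 (0.99, adjusted p = 0.000473) and Gja4 (0.78, adjusted p = 0.00314), a connexin of arterial endothelium. The lowest were Mrc1 (-3.16), the mannose receptor that macrophages share with sinusoids, Fcna (-2.38), Cldn5 (-1.95), a tight junction protein, and Gpr182 (-1.81), a chemokine-scavenging receptor of sinusoids, with adjusted p of 5.30e-05 or less. Arterial genes stood apart, with 0 of 8 lower, against 15 of 20 general endothelial and 11 of 15 sinusoidal genes. These counts were not compared by a test.

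Loss of C1qa was examined first in fetal liver. No member differed between the 2 knockout and 2 wild-type sections by edgeR. The background was 0% of 18986 genes called. DESeq2 called 7, and 138 had an unadjusted p under 0.05 in edgeR. Fitted log2 fold changes ran from -0.51 (SE 1.02) for Clec4g and -0.50 (SE 0.42) for Pecam1 to 0.10 (SE 0.48) for Oit3, with an adjusted p of 1.00 for each member. With standard errors of 0.40 to 1.02, small changes were not detectable. Among CPM values, Cdh5 was lower in both knockouts (50.0 and 45.7 CPM) than in both wild types (51.0 and 61.2 CPM) and Oit3 was higher (37.5 and 48.3 against 33.2 and 33.5 CPM), and the other 6 genes overlapped. With 2 sections per genotype such separation can arise without a difference, and its share over all genes was not counted.

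The litter numbers pair the sections, and a fit with them as a block called 157 genes, or 0.827%, but no member (lowest adjusted p = 0.919). With that block the log2 fold changes ran from -0.52 for Pecam1 to 0.14 for Oit3. Over liver spots alone they ran from -0.56 for Clec4g to -0.06 for Emcn, and Oit3 turned to -0.27. None of 73 other vascular genes tested was called.

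**Figure D5:**
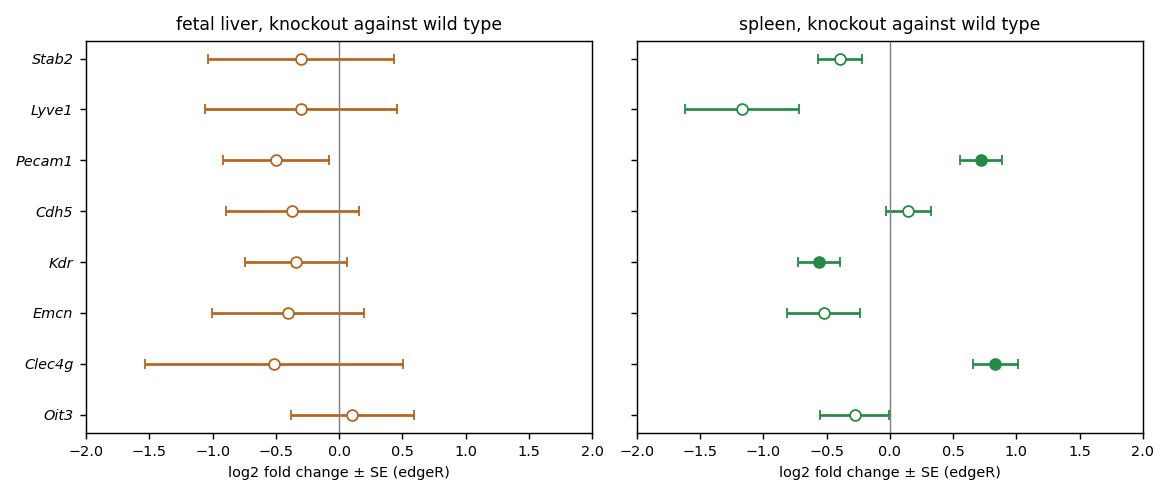
Log2 fold change of each gene, knockout against wild type, with its standard error from edgeR, in fetal liver (left, 2 against 2 sections) and spleen (right, 2 against 2 sections). Filled points passed an adjusted p of 0.05. Kdr (-0.56), Clec4g (0.83) and Pecam1 (0.72) passed in spleen, and no gene passed in fetal liver.

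In spleen the same comparison called 3 members, where 20.6% of 18895 genes were called, 13.8% higher and 6.79% lower in knockouts. Clec4g was higher in knockouts, at 43.2 and 35.6 CPM against 24.4 and 28.9 CPM in wild types (fitted log2 change 0.83, SE 0.18, adjusted p = 0.00305). Pecam1 was higher too, at 138 and 154 CPM against 104 and 108 CPM (0.72, SE 0.16, adjusted p = 0.00523). Kdr was lower, at 38.2 and 33.6 CPM against 61.5 and 65.3 CPM (-0.56, SE 0.17, adjusted p = 0.0239). The genotypes did not overlap for any of the 3, but the share of all genes without overlap was not counted here either.

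Another 3 genes were lower in both knockouts in CPM without passing, and the share of all genes that separated in this way was not counted. Stab2 stood at 116 and 97.2 CPM against 192 and 140.1 CPM (-0.39, SE 0.17, adjusted p = 0.102), Lyve1 at 1.13 and 1.31 CPM against 2.81 and 4.50 CPM (-1.17, SE 0.45, adjusted p = 0.0677), and Emcn at 5.10 and 4.00 CPM against 7.98 and 7.34 CPM (-0.52, SE 0.29, adjusted p = 0.181). Cdh5 and Oit3 overlapped between genotypes, and their fitted changes were 0.15 (SE 0.18, adjusted p = 0.542) and -0.28 (SE 0.27, adjusted p = 0.443).

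These values depend on scaling and on 1 section. With TMM factors, the fitted changes lay 0.15 to 0.41 above the log2 ratio of mean CPM. Upper-quartile factors moved the median of all genes from -0.08 to -0.37, and calls higher in knockouts were 67.0% of all calls with TMM, 85.8% with DESeq2 and 21.4% with upper-quartile factors. Under the last, Clec4g (0.55) and Pecam1 (0.43) remained higher and Kdr (-0.85) lower, Stab2 (-0.68, adjusted p = 0.00201) and Lyve1 (-1.49, adjusted p = 0.0225) passed as well, and Cdh5 turned to -0.15. Relative to the median of all genes Stab2 was at -0.31 under either scaling. Without knockout spleen 2, 240 genes passed in all and none of the 3 members did (Clec4g 0.87, adjusted p = 0.0739, Pecam1 0.54, adjusted p = 0.288, and Kdr -0.57, adjusted p = 0.255). Kdr also missed without knockout spleen 1 (adjusted p = 0.0790) and in DESeq2 (-0.52, adjusted p = 0.0655), and Stab2 passed without wild-type spleen 2 (-0.61, adjusted p = 0.00134). When all 8 cross sections entered 1 fit, so that the fetal livers set part of the spread, none of the 3 passed (adjusted p of 0.679 to 0.757).

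Other cell types moved with genotype in the same spleens. The 10 erythroid genes summed to 2772 and 980 CPM in wild types and to 286 and 523 CPM in knockouts, with 10 of 10 lower, and the 10 neutrophil genes to 686 and 618 CPM against 81.0 and 137 CPM, with 10 of 10 lower. Megakaryocyte and platelet genes summed to 462 and 532 CPM against 249 and 303 CPM, with 4 of 10 lower. B cell genes summed to 6434 and 5490 CPM against 7832 and 6645 CPM, with 4 of 10 higher. T cell genes summed to 696 and 1384 CPM against 979 and 1216 CPM, with 3 of 10 higher, and 7 pancreatic genes to 52.6 and 621 CPM against 2407 and 18363 CPM, with 7 of 7 higher. Every tested gene of these lists was detected in all 4 sections. The part of these cells in the members' values was not tested. The comparison was also made on fewer spots. Without spots holding at least 0.1% pancreatic UMIs, Clec4g (0.84), Pecam1 (0.72) and Kdr (-0.58) passed. Over the red-pulp-rich spots alone, Clec4g (1.41, adjusted p = 0.000759), Pecam1 (0.99, adjusted p = 0.00683) and Kdr (-0.65, adjusted p = 0.0258) passed, and Stab2 was at -0.10 (adjusted p = 0.736).

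Of 71 other vascular genes tested in spleen, 2 were higher and 10 lower in knockouts, with a median log2 fold change of -0.17 against -0.08 for all genes. Over all genes, 13.8% were called higher and 6.79% lower. The 2 higher were Vcam1 (0.64), an adhesion molecule of activated endothelium and of macrophages, and Dnase1l3 (0.58). The lowest were Reln (-1.89), at 14.2 and 9.94 CPM in wild types and 3.02 and 2.63 CPM in knockouts, Bmx (-1.11), a kinase of arterial endothelium, Ackr1 (-1.07) and Angpt2 (-0.82), a ligand of the endothelial receptor Tek. Adjusted p was 0.0269 or less for these 6.

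Whether the genotype effect differed between the tissues was tested as an interaction over the 8 sections of the cross. No member differed, and edgeR called 0% of 19180 genes. DESeq2 called 9, and 2018 had an unadjusted p under 0.05 in edgeR. Pecam1 came closest, with a difference of 1.22 on the log2 scale (SE 0.38, unadjusted p = 0.0133, adjusted p = 0.454 by edgeR). With litter added as a term, 1409 genes were called and Pecam1 passed (1.24, SE 0.29, adjusted p = 0.0147), while the other 7 members did not (adjusted p of 0.133 or more). Thus Clec4g and Kdr, called in spleen alone, were not shown to differ from fetal liver.

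Across the 13 sections, the members fell into loose groups. Stab2 and Clec4g had a Pearson r of 0.88 in log2(CPM + 1), Lyve1 and Oit3 of 0.87, Pecam1 and Clec4g of 0.71 and Kdr and Emcn of 0.70, whereas Stab2 and Cdh5 were at -0.68. The sections share tissue, source and depth, so that these values are descriptions. Of 12232 genes with a mean of at least 5 CPM, those most like Stab2 were Fcna (0.95), Acot8 (0.95) and Psen2 (0.95), those most like Clec4g were Pglyrp2 (0.99), Ppm1k (0.97) and Kmo (0.97), and those most like Pecam1 were Wdfy2, Tgfbr2 and Zbtb4 (0.98 to 0.99). For Lyve1 they were Mttp (0.92), Gulo (0.91) and Elovl2 (0.91), and for Oit3 Mttp (0.97), Lin28b (0.97) and Adra2b (0.97), so that Mttp was shared. For Cdh5 they were Ggcx (0.93), Stab1 (0.93) and Yes1 (0.92), for Kdr Bad (0.90), B3galnt1 (0.87) and Cdc42ep5 (0.87), and for Emcn Gnai1 (0.96), Sfrp2 (0.96) and Cd276 (0.96).

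Across the spots of a section the members were mostly unrelated, with a median r over the 28 pairs of -0.01 to 0.10 in the 13 sections. The largest values lay in wild-type fetal liver 4, where r was 0.64 for Stab2 and Oit3, 0.60 for Cdh5 and Kdr and -0.24 for Emcn and Oit3. In spleen the highest were 0.36 and 0.30 for Stab2 and Clec4g in knockout spleens 2 and 1 and 0.22 in the purchased spleen, against 0.12 and 0.06 in the wild-type spleens of the cross. Counts per spot were low, and depth differed between these sections, with medians of 7846 and 12139 UMIs per spot in the knockout and 13938 and 2294 in the wild-type spleens.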

How the data were processed

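Visium libraries of 14 mouse sections were analysed, 6 from purchased mice and 8 from the C1qa cross. The UMI counts per gene and spot were deposited by the authors as raw matrices made with Space Ranger (genome build mm10 in the submitters' processing notes), with tables of barcodes, features and spot positions. The 8 members and all gene lists were chosen with earlier results of these data known. In-tissue spots with at least 1000 genes were kept and summed per section or per set of spots, which gave 37167 to 56182915 UMIs. Intervals are 95% exact Poisson or, for folds between 2 sections, 95% exact binomial, and cover counting error alone.

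Sums were fitted with the quasi-likelihood F test of edgeR 4.0.16 (TMM, filterByExpr; limma 3.58.1, R 4.3.3), with Benjamini-Hochberg adjustment over all genes and a threshold of 0.05. DESeq2 1.42.0, upper-quartile factors, no filter, all in-tissue spots, subsets of spots, replicate blocks and leaving out each section were alternatives, and 2 blocked fits on subsets of spots were added after the data were seen. The edgeR steps were tested on simulated data. SEs are the fold change over the root of F. In the main genotype and tissue fits, standard errors and p-values measure the spread between sections, with 2 per group. In the 2 comparisons of spots within sections, the section was a block. There they measure how far the contrast varied over the 4 sections. No p was computed between purchased and cross sections. Same-numbered fetal livers came from 1 litter by the study's supplement, and their deviations correlated at 0.697.

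Named genes were the 8 members, at most 4 genes each way from the other vascular lists among those called, and the 3 genes most like each member over 13 sections. Upstream sequences came from RefSeq (GRCm38.p6), where 4 of 8 members matched and 3 are printed. Replicates of 1 group were never duplicates (lowest chi-square per degree of freedom 21.8).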

Additional observations from a re-analysis of the deposited data

Results flagged for a closer look

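Spots outside the tissue, which enter no comparison, held counts of the 8 genes in all 6 purchased sections, above the limit of 3 counts. Summed over the 8 genes the level off tissue was 203 CPM in the E13.5 and 180.5 CPM in the E14.5 fetal liver, 218 CPM in P8, 171 CPM in 89-week and 271 CPM in EDTA bone marrow, and 417 CPM in spleen. Over the passing spots of the same sections it was 217, 183, 225, 164, 215 and 366 CPM. As a share of UMIs the level off tissue was thus close to that on tissue, on 10 counts in the EDTA section and 1433 to 4027 counts in the others. Counts per spot were lower off tissue in all 6 sections. The E13.5 fetal liver held 2830 counts in 4501 spots off tissue and 8300 in 491 passing spots. The spleen held 2883 counts in 3954 spots off tissue and 5600 in 1012 passing spots. The cross sections list no spots off the tissue, so that this could not be read there.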

How the results depend on the processing

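With 2 sections per group, small differences were not detectable in fetal liver. Counts of called genes were 7 with DESeq2, 157 with the replicate block, 1 over liver spots alone and 26 over liver spots with the block for fetal liver genotype, 0 for spleen genotype in the fit of 8 sections, 9 with DESeq2 and 1409 with the litter term for the interaction, and 2709 with DESeq2 and 1004 without the section block for the pulp sets. Leaving out 1 section gave 0 to 109 genes for fetal liver genotype (109 without wild-type 2 and 103 without wild-type 4), 240 to 4972 for spleen genotype, 5744 to 12412 for tissue (5744 without wild-type spleen 1, 5899 without wild-type spleen 2), 0 to 2 for the interaction (2 without knockout fetal liver 4), 2330 to 3873 for pulp (2330 without wild-type spleen 2) and 3339 to 6381 for liver spots (3339 without wild-type 4, 3583 without knockout 2).

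Members changed sign only where they were not called. In fetal liver genotype, Oit3 was -0.27 over liver spots and -0.26 with the block added. Leaving out 1 section, Stab2 ranged from -0.97 to 1.11, Lyve1 from -0.90 to 0.78, Cdh5 from -1.05 to 0.12, Emcn from -0.85 to 0.31, Clec4g from -1.59 to 1.73 and Oit3 from -0.26 to 0.61. In spleen genotype, Cdh5 was -0.15 with upper-quartile factors and Oit3 ranged from -0.54 to 0.24. In the interaction, Stab2 was 0.22 and Oit3 0.18 over liver spots and Emcn 0.050 in DESeq2, and leaving out 1 section Stab2 ranged from -1.46 to 0.58, Emcn from -0.82 to 0.37, Clec4g from -0.84 to 2.37 and Oit3 from -0.79 to 0.21. Emcn in pulp ranged from -0.046 to 0.26. The cause was not tested. Spleens share only a number, and their deviations correlated at 0.057. The replicate block there called 4968 genes, with Lyve1 at -1.28 (adjusted p = 0.0421 by edgeR) and no other change among the members. Other than that, Pecam1 in the interaction and Cdh5 between liver and other spots, given above, blocks and litter terms changed no call of a member.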
